A study of Mus musculus with 2 samples.

Results

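The genes described here encode the subunits, assembly factors and activators of the proteasome and the ubiquitin-conjugating E2 enzymes. They were chosen by gene name on the array, as names that start with Psma to Psmg and a digit, or with Ube2. The immunoproteasome subunits Psmb8, Psmb9 and Psmb10 and the mitotic E2 gene Ube2c were left out by that rule. It found 84 genes among the 29607 gene names of the array, 47 proteasome genes and 37 Ube2 genes. Of these, 78 were measured on both arrays. The other 6, Psma8, Psmb11, Ube2d2b, Ube2dnl1, Ube2ql1 and Ube2u, were well above background on neither array. Psma8 and Psmb11 are known as the testis and thymus forms of 20S subunits. Psmc3ip, Psme3ip1 and the pseudogene Ube2d-ps match by name only and encode no subunit or E2 enzyme. Ube2cbp, which RefSeq also lists as Ube3d, is named for binding an E2 and is itself known as a ligase; it is kept among the remaining Ube2 genes.

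The 26S proteasome degrades proteins that carry ubiquitin chains. Its 20S core is a stack of alpha and beta rings with the proteolytic sites on the inside. Its 19S cap holds a ring of ATPases that unfold substrates and feed them into the core, and non-ATPase subunits that bind ubiquitin and cut it off. Ubiquitin reaches a substrate through a cascade in which an E1 enzyme activates it, an E2 enzyme carries it and an E3 ligase selects the target. Parallel cascades attach the ubiquitin-like proteins NEDD8, SUMO, ISG15 and UFM1. Photoreceptors are among the cells whose dependence on the proteasome has been studied in models of retinal degeneration.

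The cells were 661W, a mouse line described as photoreceptor cells, held for 3 days in DMEM/F12 without choline (the choline-deficient group, also deficient below) or with it, at a concentration the labels give as 8.98 g/L (the choline-sufficient group, also sufficient). That is high for a culture medium, and the unit may be in error in the labels. The maintenance medium held fetal bovine serum, and the labels do not say whether serum was present during those days. Total RNA of each condition was labelled with Cy3 and hybridised to 1 Agilent single-colour array, and the design text speaks of RNA pooled from 4 dishes. Each group is thus 1 array with no replicate, so no difference below has a test or a p-value, and all of them compare these 2 RNA pools. Of the cone markers, 6 of 11 were measured on both arrays and Opn1sw, Cngb3 and Crx on neither. Of the rod markers 2 of 5 were measured, and Nrl and Nr2e3 were among those measured on neither. The measured cone genes were dim, with scaled signals (defined below) of at most 0.227 on the deficient and 0.154 on the sufficient array, both of Gnat2.

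Levels are scaled signals, the processed signal of a probe divided by the 75th percentile of its array, so that 1 stands for that percentile. A gene with several probes is given by the mean of their log2 values. A difference is the log2 level on the deficient array minus that on the sufficient one. The error after ± is propagated from the scanner software's estimates. It had a median of 0.20 over the members, was nearly the same for all but dim genes, and does not shrink with more probes. It says nothing of how far cultures vary. Genes are called higher or lower here when at least 1.5-fold apart. Of 43020 non-control spots, 70.7% were well above background on the choline-deficient and 68.5% on the choline-sufficient array, and 0 were saturated. Both lay on the same slide.

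Promoters of 6 members whose values recur below are printed first, because genes of one particle, or paralogs, differed to unlike degrees. They are the 250 bases before the start site in RefSeq on GRCm38.p6, written in the direction of the gene. Capitals mark matches on either strand to CCAAT (the NF-Y box), TGACNNNGC (the core of the antioxidant response element), GCGCA and GCGC around any base (nuclear respiratory factor 1), CCGGAAG (the ETS family), a pair of GAAA with 2 bases between them (the core of the interferon-stimulated response element) and TTCNNNGAA (the gamma-activated site). Psmc2 and Psmd6 were the lowest and the highest 19S subunit genes, and Psma3 was the 20S gene nearest to no difference. Psme1, Psme3 and Ube2l3 were added after their values were seen. Psmb1, the lowest 20S gene, is named only.
Psmc2: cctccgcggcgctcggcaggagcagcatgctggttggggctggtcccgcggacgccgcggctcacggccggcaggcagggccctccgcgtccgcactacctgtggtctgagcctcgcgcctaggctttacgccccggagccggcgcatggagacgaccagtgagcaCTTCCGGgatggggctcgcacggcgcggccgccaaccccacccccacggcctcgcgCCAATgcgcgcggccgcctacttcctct
Psmd6: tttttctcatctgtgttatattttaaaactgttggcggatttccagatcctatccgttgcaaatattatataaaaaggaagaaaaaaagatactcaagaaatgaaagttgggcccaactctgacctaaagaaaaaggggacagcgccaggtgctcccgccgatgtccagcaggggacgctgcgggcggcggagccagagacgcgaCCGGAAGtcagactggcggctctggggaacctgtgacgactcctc
Psma3: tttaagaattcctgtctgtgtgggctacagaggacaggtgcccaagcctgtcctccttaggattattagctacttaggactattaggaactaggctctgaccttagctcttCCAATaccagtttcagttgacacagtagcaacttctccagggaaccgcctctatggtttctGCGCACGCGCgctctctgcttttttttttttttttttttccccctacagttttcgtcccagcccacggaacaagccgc
Psme1: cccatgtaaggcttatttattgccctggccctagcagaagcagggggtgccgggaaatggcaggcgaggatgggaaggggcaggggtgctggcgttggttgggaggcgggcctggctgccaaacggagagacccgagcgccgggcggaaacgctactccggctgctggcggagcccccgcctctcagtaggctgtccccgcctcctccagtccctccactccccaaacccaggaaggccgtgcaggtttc
Psme3: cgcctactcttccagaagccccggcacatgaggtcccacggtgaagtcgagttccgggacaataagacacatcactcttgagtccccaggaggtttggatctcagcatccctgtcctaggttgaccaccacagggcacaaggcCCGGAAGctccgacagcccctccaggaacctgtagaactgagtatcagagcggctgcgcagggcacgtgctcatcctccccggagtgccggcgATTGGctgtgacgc
Ube2l3: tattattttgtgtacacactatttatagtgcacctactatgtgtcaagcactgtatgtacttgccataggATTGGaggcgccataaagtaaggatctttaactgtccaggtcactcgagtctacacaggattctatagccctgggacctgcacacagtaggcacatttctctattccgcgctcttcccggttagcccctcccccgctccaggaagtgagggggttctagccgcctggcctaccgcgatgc
They lie at chr5:21785025-21785274 (plus strand, the first of 2 windows of that gene), chr14:14120946-14121195 (minus), chr12:70974373-70974622 (plus), chr14:55578244-55578493 (plus), chr11:101315963-101316212 (plus) and chr16:17201493-17201742 (minus). The Psmc2 window holds 1 ETS and 1 CCAAT match, the Psmd6 window 1 ETS match, and the Psma3 window 1 CCAAT and 1 nuclear respiratory factor 1 match. The Psme3 window holds 1 ETS and 1 CCAAT match, the Ube2l3 window 1 CCAAT match, and the Psme1 window 0 of the 6 motifs.

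The table held promoters for 69 of the 84 members, in 83 windows. The ETS letters stood in 35.7% of the windows of 26S subunit genes and 19.5% of those of Ube2 genes, against 11.5% over the promoters of all measured genes and 6.91% over all 32851 windows. The nuclear respiratory factor 1 letters stood in 21.4% of 26S windows and 7.32% of Ube2 windows, against 6.63% for all measured genes and 3.74% for all windows. The CCAAT letters stood in 39.3% of 26S windows and 19.5% of Ube2 windows, on either side of the 35.2% of measured genes and the 33.8% of all windows. The antioxidant response letters stood in 14.3% of 26S windows and 12.2% of Ube2 windows, against 11.3% of measured genes and 10.2% of all windows. The interferon-stimulated letters stood in 7.14% of 26S windows and 2.44% of Ube2 windows, against 2.67% of measured genes and 2.98% of all windows. The gamma-activated letters stood in 0 of 28 26S windows and 7.32% of Ube2 windows, against 6.17% of measured genes and 7.02% of all windows. These are counts of letters in a fixed window and carry no statement on binding.

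Most of the 78 measured members had lower levels on the choline-deficient array. In bulk RNA, fewer cells with a transcript and less of it per cell cannot be told apart. The difference was below 0 in 66 of them, 22 were at least 1.5-fold lower, 1 was at least 1.5-fold higher and 55 were neither. Differences below 0 made up 84.6% of the members, 57.4% of all measured genes and 71.2% of the brightest 25% of genes. Over all 19816 measured genes, 28.9% were past that fold, 14.1% lower and 14.8% higher. Among members the shares were 28.2% lower and 1.28% higher. The median difference was -0.33 over the members and -0.10 over all measured genes. At 2-fold only Ube2l3 was lower and no member was higher, where 3.88% of all genes were lower and 7.67% higher.

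The members are bright, and the arrays differed by brightness over all genes. Of the 78 members, 55 lay in the brightest 4954 measured genes by mean level, the top 25% of them. Those 4954 genes as a whole had a median difference of -0.24, with 16.8% of genes lower and 6.82% higher. The 55 members among them had a median of -0.33, with 17 lower and 1 higher. The other 23 members also had a median of -0.33, with 5 lower and 0 higher, against a median of -0.04 over all 14862 dimmer genes. In 20 bins of equal size, the median of all genes was -0.32 in the brightest bin and between -0.02 and 0.02 in bins 4 to 10 from the dimmest. Cyclic loess, which removes such a trend, left medians of -0.10 for the proteasome genes and -0.22 for the Ube2 genes, against -0.01 for all genes. The part of this trend in the members' values was not tested beyond these figures.

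**Figure D1:**
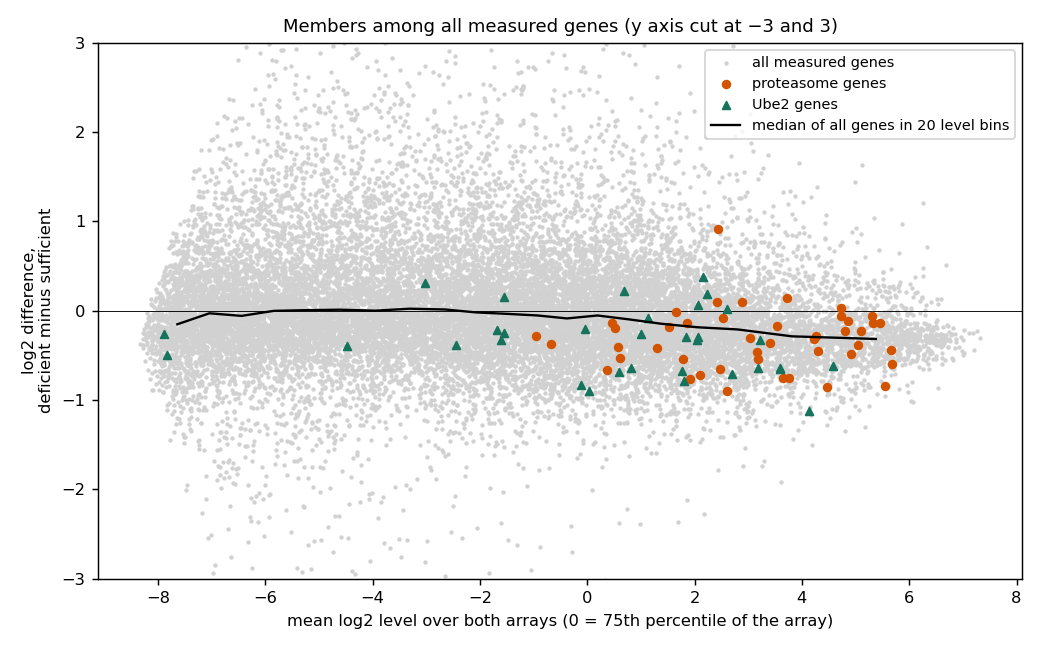
Each point is a gene, placed by its mean log2 level over both arrays (x axis, 0 at the 75th percentile of the array) and its log2 difference, choline-deficient minus choline-sufficient (y axis, shown from -3 to 3). Orange points are proteasome genes, green triangles Ube2 genes and grey points all 19816 measured genes, and the black line joins the medians of 20 level bins. Most members lie at the right, where the line is at -0.32 in the last bin, and 66 of 78 lie below 0 (84.6%, against 57.4% of all measured genes).

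In the 20S core the beta ring genes showed a wider range of differences than the alpha ring genes. All 14 measured genes of the core had differences below 0 under the 75th-percentile scaling. Of these 2 were at least 1.5-fold lower (14.3%, near the 14.1% of all measured genes). Psma3, Psma7, Psmb4 and Psmb6, the 4 nearest to 0, turned positive under quantile, cyclic loess and spike-in scaling. The alpha ring, which gates the core, had 0 of 7 genes past the fold and a median of -0.32. Psma4 was its lowest gene, with scaled signals of 7.64 on the choline-deficient and 10.5 on the choline-sufficient array, a difference of -0.46 ± 0.20 over 2 probes. Psma3 was the closest to equal, with 38.7 on the choline-deficient and 40.3 on the choline-sufficient array, a difference of -0.06 ± 0.20.

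The beta ring had 2 of 7 genes past the fold and a median of -0.49. Psmb1, a non-catalytic beta subunit, had 16.4 on the choline-deficient and 29.7 on the choline-sufficient array, 1.80-fold lower (-0.85 ± 0.20; probe on chromosome 17, 15630098 to 15631393 on mm9). Psmb3, also non-catalytic, had 41.6 on the deficient and 62.7 on the sufficient array, 1.51-fold lower (-0.59 ± 0.20), just past the fold. The genes of the catalytic subunits did not pass it. Psmb5, the chymotrypsin-like subunit, had 25.6 on the choline-deficient and 35.9 on the choline-sufficient array (-0.49 ± 0.20). Psmb7, the trypsin-like subunit, had 7.48 on the deficient and 10.9 on the sufficient array (-0.54 ± 0.20), just short of the fold. Psmb6, the caspase-like subunit, had 38.2 on the choline-deficient and 42.1 on the choline-sufficient array (-0.14 ± 0.20). Psmb4, a non-catalytic subunit, was the gene of this ring nearest to 0, with 41.9 on the deficient and 45.9 on the sufficient array (-0.13 ± 0.20).

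In the 19S cap the ATPase genes had a lower median than the non-ATPase genes. Of the 6 genes of the ATPase ring 4 were at least 1.5-fold lower, with a ring median of -0.70. Of the 11 non-ATPase genes 1 was, with a median of -0.14. Over all measured genes 14.1% were lower. Psmc2 had 35.0 on the choline-deficient and 63.0 on the choline-sufficient array, 1.80-fold lower (-0.85 ± 0.20), and its 2 probes both gave -0.85 (chromosome 5, 21309536 to 21309595 on mm9). Psmc5 had 10.4 on the deficient and 17.6 on the sufficient array, 1.68-fold lower (-0.75 ± 0.20). Psmc6 had 9.67 on the choline-deficient and 16.2 on the choline-sufficient array, also 1.68-fold lower (-0.75 ± 0.20). These ATPases and Psmc4, with 4.41 on the deficient and 6.94 on the sufficient array (1.57-fold lower, -0.65 ± 0.20), were the genes of the ring past the fold. Psmc1 had 16.8 on the choline-deficient and 23.0 on the choline-sufficient array (-0.46 ± 0.20), and its 2 probes gave -0.63 and -0.28. Psmc3 was nearest to 0, with 25.9 on the deficient and 30.3 on the sufficient array (-0.22 ± 0.20), and was above 0 under quantile, loess and spike-in scaling.

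The only non-ATPase gene past the fold was Psmd14, which encodes the deubiquitinase that removes ubiquitin from substrates at the entry of the core. It had 3.35 on the choline-deficient and 5.52 on the choline-sufficient array, 1.65-fold lower (-0.72 ± 0.20). Psmd2, a large scaffold subunit, followed with 28.8 on the deficient and 37.6 on the sufficient array (-0.39 ± 0.20). The other 9 genes lay between -0.23 and 0.10. Psmd6, a lid subunit, had the highest difference of the cap, with 7.67 on the choline-deficient and 7.16 on the choline-sufficient array (0.10 ± 0.20, below 0 under median scaling). Psmd13, another lid subunit, had 5.53 on the deficient and 5.18 on the sufficient array (0.09 ± 0.20), and the ubiquitin receptor Psmd4 had 26.7 on the deficient and 26.2 on the sufficient array (0.03 ± 0.20), both below 0 under median scaling.

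The gap between ATPase and non-ATPase genes was also seen within the base of the cap. The base holds the ATPases together with Psmd1, Psmd2 and Psmd4, and these 3 had a median of -0.06, with 0 of 3 past the fold. The 8 measured lid genes had a median of -0.15, with 1 past the fold. The ATPase median minus the non-ATPase median was -0.56. It was -0.58 under quantile scaling, -0.55 under cyclic loess and normexp correction, and -0.56 under the other alternatives. Median and spike-in scaling shift both sets alike and could not move it. The deposited values, the changed filters on level and the brightest probe repeat the main medians or nearly so, and add no support. Only quantile scaling, cyclic loess and normexp correction could move it. It is a difference between 2 sets of genes on the same 2 arrays.

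**Figure D2:**
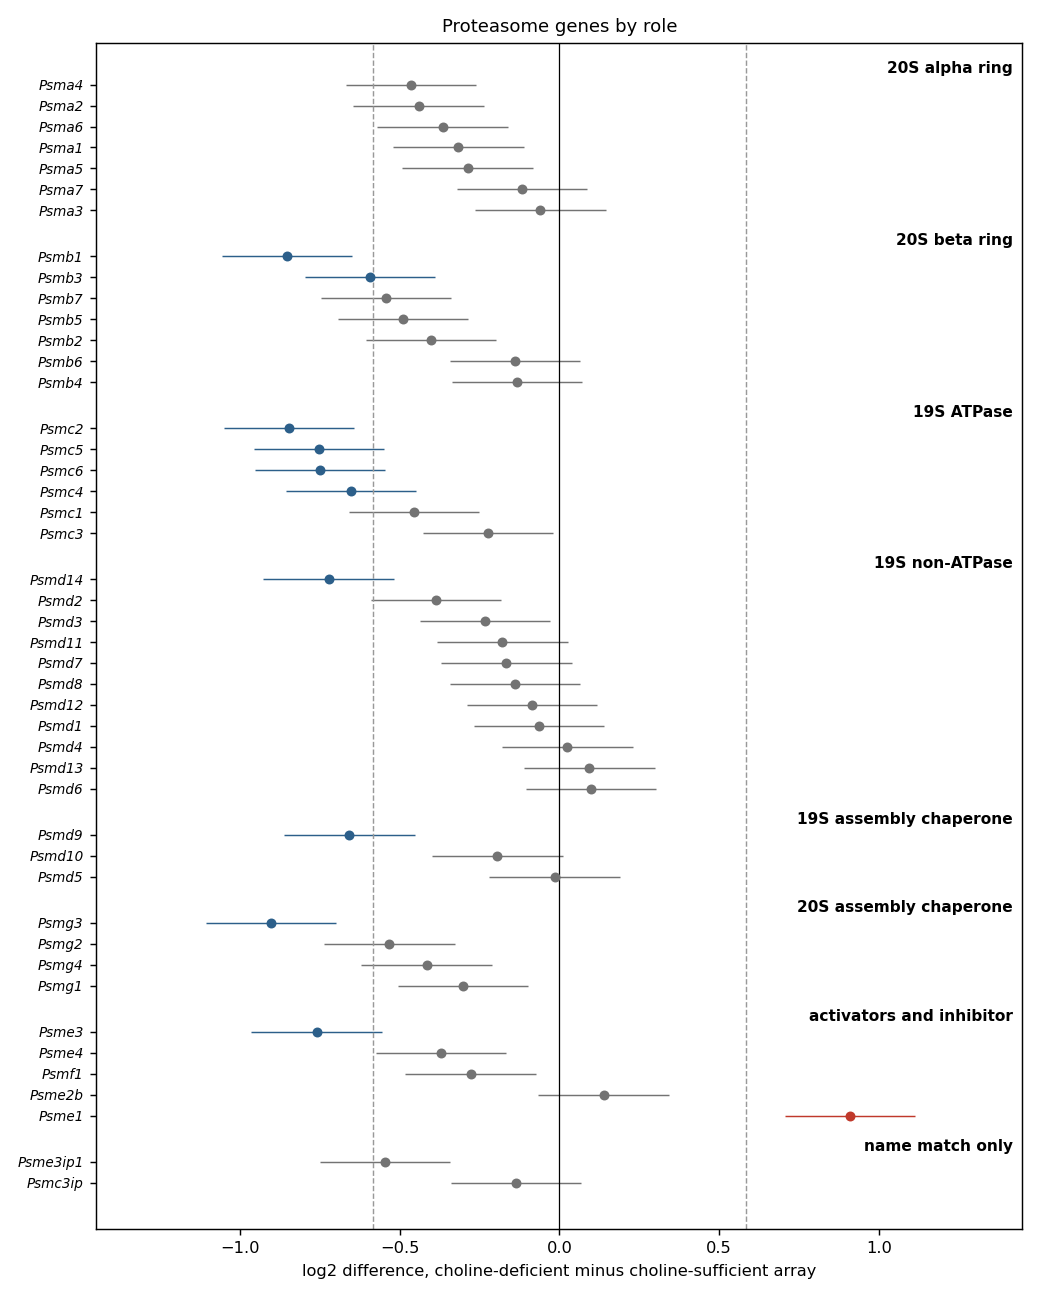
Each point is a measured proteasome gene, grouped by role, with its log2 difference, choline-deficient minus choline-sufficient, on the x axis. The bar is the scanner error on each side and the dashed lines mark 1.5-fold. Blue points are at least 1.5-fold lower (10 genes), the red point (Psme1) at least 1.5-fold higher, and grey points neither. The 19S ATPase genes have a median of -0.70 and the 19S non-ATPase genes of -0.14, of which Psmd6, Psmd13 and Psmd4 lie above 0 here and below it when arrays are scaled to their medians.

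Assembly factors of the core were all below 0. Psmg3, one of the chaperones that help to build the alpha ring, was the lowest proteasome gene. It had 4.43 on the choline-deficient and 8.28 on the choline-sufficient array, 1.87-fold lower (-0.90 ± 0.20; chromosome 5, 140299626 to 140299685 on mm9). It stayed past the fold under all 9 alternative settings, between -1.02 and -0.63. As it has 1 probe, only quantile scaling, cyclic loess and normexp correction could move it other than by a fixed shift. Its dimer partner Psmg4 had 2.12 on the deficient and 2.83 on the sufficient array (-0.42 ± 0.20). The other chaperone pair had -0.53 ± 0.20 for Psmg2 and -0.30 ± 0.20 for Psmg1. Pomp, the maturation factor of the core, which the name rule does not take, had 4.72 on the choline-deficient and 6.47 on the choline-sufficient array (-0.45 ± 0.20).

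Chaperones of the ATPase ring differed among themselves. Psmd9 had 1.03 on the choline-deficient and 1.62 on the choline-sufficient array, 1.58-fold lower (-0.66 ± 0.20), and its 2 probes gave -0.82 and -0.49. Psmd10, known as gankyrin, had 1.33 on the deficient and 1.52 on the sufficient array (-0.19 ± 0.20, above 0 under spike-in scaling). Psmd5 had 3.12 on the deficient and 3.15 on the sufficient array (-0.02 ± 0.20), and turned positive under quantile, loess and spike-in scaling and normexp correction.

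Among the activators that can replace the 19S cap, Psme1 and Psme3 lay past the fold on opposite sides. Psme1 encodes PA28 alpha, the interferon-inducible activator that is known from antigen processing. It was the only member past the fold upward, with scaled signals of 7.38 on the choline-deficient and 3.93 on the choline-sufficient array, 1.88-fold higher (0.91 ± 0.20; chromosome 14, 56200194 to 56200253 on mm9). Its probe is printed in 10 spots on each array. The spots ran from 6.69 to 8.09 on the choline-deficient array and from 3.64 to 4.18 on the choline-sufficient array, so the spots of the arrays did not overlap. The spot-by-spot difference had an SD of 0.08, which is the spread within an array and not between cultures. Over 268 probes with at least 8 spots the median SD was 0.05. With spreads this small, spots without overlap add little to the difference itself. Psme1 stayed past the fold under all 9 alternatives, between 0.79 and 1.18. As for Psmg3, only quantile scaling, cyclic loess and normexp correction could move it other than by a fixed shift.

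Psme3 encodes the related PA28 gamma, a nuclear activator. It had 2.91 on the choline-deficient and 4.93 on the choline-sufficient array, 1.69-fold lower (-0.76 ± 0.20; chromosome 11, 101184289 to 101184348 on mm9). The difference of Psme1 minus that of Psme3 was 1.67 ± 0.29, and lay between 1.60 and 1.74 under the alternatives. Median and spike-in scaling shift both genes alike and could not move it. Each gene has 1 probe, so the deposited values, the changed filters on level and the brightest probe repeat it or nearly so. Only quantile scaling, cyclic loess and normexp correction could move it. The remaining activator genes had smaller differences. Psme4, which encodes PA200, had 0.547 on the deficient and 0.708 on the sufficient array (-0.37 ± 0.20), and the inhibitor gene Psmf1 had 0.471 on the deficient and 0.572 on the sufficient array (-0.28 ± 0.20). Psme2b, a near-identical copy of the gene for PA28 beta, had 13.9 on the choline-deficient and 12.7 on the choline-sufficient array (0.14 ± 0.20) over 2 probes. Probes for it may also read Psme2, which has no probe under its own name on the array. Another Psme2b probe was above background on the choline-deficient array only.

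The inducible subunits left out by the rule were, like Psme1, higher on the choline-deficient array, while the subunits they replace had values below 0. Psmb8 had 2.47 on the choline-deficient and 1.25 on the choline-sufficient array (1.98-fold higher, 0.98 ± 0.20), Psmb9 0.917 on the deficient and 0.452 on the sufficient array (2.03-fold higher, 1.02 ± 0.20) and Psmb10 11.4 on the deficient and 5.66 on the sufficient array (2.01-fold higher). Each is the inducible form of a catalytic beta subunit. Psmb8 minus its constitutive form Psmb5 came to 1.47 ± 0.29, and Psmb10 minus Psmb7 to 1.55 ± 0.29. Psmb9 minus Psmb6 came to 1.16 ± 0.29, but to 0.23 with no filter on dim probes, where a second and dim Psmb9 probe enters the mean and brings Psmb9 itself to 0.09. Ube2c had 0.18 ± 0.20.

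The Ube2 genes had no member past the fold upward and 12 of 33 past it downward, with a median of -0.33. Ube2l3 was the lowest of all members. It encodes UBCH7, an E2 that works with HECT and RBR ligases, parkin among them, and not with most RING ligases. Its 4 probes had scaled signals of 6.49, 9.95, 14.5 and 20.9 on the choline-deficient array, against 13.9, 21.9, 30.7 and 47.5 on the choline-sufficient array. All 4 probes were therefore lower on the choline-deficient array, by similar factors, with differences from -1.19 to -1.08 (chromosome 16, probes between 17152108 and 17154223 on mm9). The gene value was 2.18-fold lower (-1.13 ± 0.20), and -1.25 to -0.86 under the alternatives.

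Other broadly acting E2 genes differed among themselves. Ube2w, whose product attaches ubiquitin to the amino terminus of substrates, had 0.692 on the choline-deficient and 1.24 on the choline-sufficient array, 1.78-fold lower (-0.84 ± 0.20). Ube2e1 had 5.10 on the deficient and 8.32 on the sufficient array, 1.63-fold lower (-0.71 ± 0.20), with 3 probes from -0.75 to -0.65. Its paralog Ube2e2 had the highest difference of the Ube2 genes, with 5.11 on the choline-deficient and 3.93 on the choline-sufficient array (0.38 ± 0.20), short of the fold. The difference of Ube2e2 minus that of Ube2e1 was 1.08 ± 0.29, and lay between 1.04 and 1.14 under the alternatives. Median and spike-in scaling could not move it, and the deposited values and changed filters on level repeat it or nearly so. Ube2e3 had 0.02 ± 0.20, and turned below 0 under median scaling and with its brightest probe. The paralogs were thus spread from lower to slightly higher on one pair of arrays. In the Ube2d family, which serves many RING ligases, Ube2d1 had 0.31 ± 0.20, Ube2d3 0.06 ± 0.20 (below 0 under median scaling) and Ube2d2a -0.30 ± 0.20. The 3 probes of Ube2d2a were spread, from -0.56 for the brightest to -0.09. Ube2dnl2, a copy with signals under 0.01 on both arrays, had -0.50 with an error of 0.38.

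Of the E2 enzymes that build degradation chains, Ube2k and Ube2s were past the fold. Ube2k had 2.66 on the choline-deficient and 4.59 on the choline-sufficient array, 1.73-fold lower (-0.79 ± 0.20), with 3 probes from -0.96 to -0.66. Ube2s, which extends chains for the anaphase-promoting complex, had 19.2 on the deficient and 29.5 on the sufficient array, 1.54-fold lower (-0.62 ± 0.20). Ube2r2, a partner of cullin ligases, had -0.33 ± 0.20, and Ube2g1 -0.25 ± 0.20 (above 0 under spike-in scaling). Cdc34, the paralog of Ube2r2 under another name, had 18.2 on the choline-deficient and 30.6 on the choline-sufficient array, 1.68-fold lower (-0.75 ± 0.20).

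Of the E2 genes for degradation at the endoplasmic reticulum 2 of 3 were past the fold downward, where 14.1% of all measured genes were lower. Ube2g2, the partner of the ligase gp78, had 0.744 on the choline-deficient and 1.39 on the choline-sufficient array, 1.87-fold lower (-0.90 ± 0.20; chromosome 10, 77108514 to 77108573 on mm9 for its brightest probe). Its 2 probes gave -1.13 and -0.67, and it stayed past the fold under all 9 alternatives. The membrane-anchored Ube2j2 had 9.62 on the deficient and 15.2 on the sufficient array, 1.58-fold lower (-0.66 ± 0.20), with 3 probes from -0.73 to -0.61. Its paralog Ube2j1 had 0.909 on the choline-deficient and 1.05 on the choline-sufficient array (-0.20 ± 0.20), and was above 0 under spike-in scaling.

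The RAD6 genes, whose products modify histone H2B and PCNA, were both below 0. Ube2b had 7.26 on the choline-deficient and 11.4 on the choline-sufficient array, 1.56-fold lower (-0.65 ± 0.20), and Ube2a had 3.70 on the deficient and 4.65 on the sufficient array (-0.33 ± 0.20). The difference of Ube2b minus that of Ube2a, -0.31 ± 0.29, was close to the size of the scanner error. The probes gave -0.67 to -0.60 for Ube2b and -0.35 to -0.32 for Ube2a. The genes of the dimer that builds signalling chains had probe means nearer to 0. Ube2n had 1.73 on the choline-deficient and 1.49 on the choline-sufficient array (0.22 ± 0.20), but its 2 probes gave -0.03 and 0.47. Its inactive partners had -0.26 ± 0.20 for Ube2v1 (above 0 under spike-in scaling) and -0.09 ± 0.20 for Ube2v2 (above 0 under loess and spike-in scaling). The 3 probes of Ube2v2 ranged from -0.32 to 0.37. The dimmest gave 0.37, from 0.177 on the deficient and 0.137 on the sufficient array, and the brighter ones gave -0.32 and -0.31. The brightest Ube2v1 probe gave -0.35, so these brighter probes lay near the value of Ube2a.

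**Figure D3:**
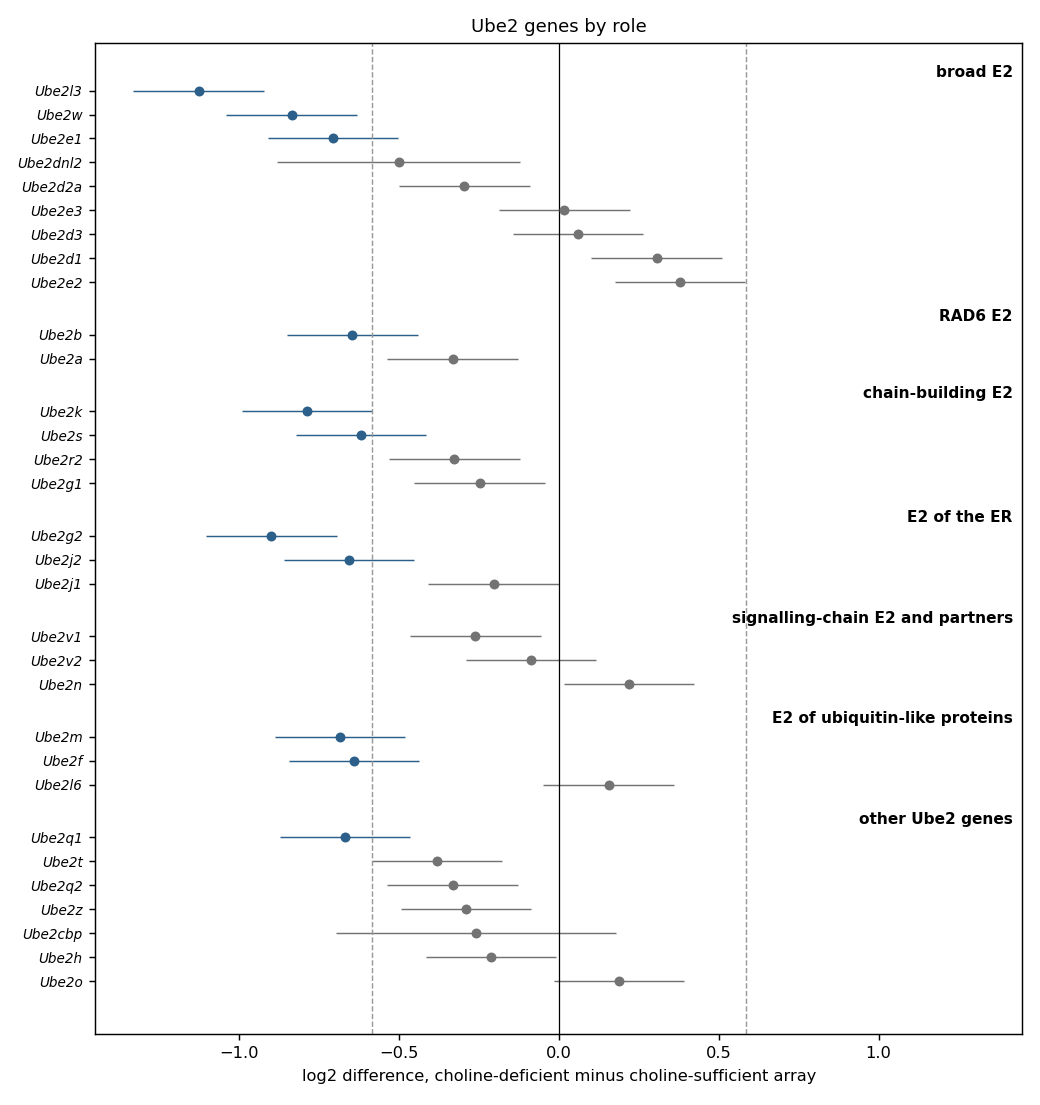
Each point is one of the measured Ube2 genes drawn, grouped by role, with its log2 difference, choline-deficient minus choline-sufficient, on the x axis, the scanner error as a bar and 1.5-fold as dashed lines. Blue points are 11 of the 12 genes at least 1.5-fold lower and grey points are neither higher nor lower. Ube2l3 is lowest at -1.13 and Ube2e2 highest at 0.38, and Ube2e3 and Ube2d3, just above 0 here, lie below 0 when arrays are scaled to their medians.

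Of the remaining Ube2 genes Ube2q1 was past the fold, with 2.70 on the choline-deficient and 4.30 on the choline-sufficient array, 1.59-fold lower (-0.67 ± 0.20). The hybrid E2 and E3 gene Ube2o had the highest difference of this group, with 5.03 on the deficient and 4.41 on the sufficient array (0.19 ± 0.20). Between them lay Ube2t of the Fanconi anaemia pathway (-0.38 ± 0.20), Ube2q2 (-0.33 ± 0.20), Ube2z (-0.29 ± 0.20), Ube2h (-0.21 ± 0.20) and the dim Ube2cbp, the ligase gene (-0.26 ± 0.44). The name-only genes had -0.55 for Psme3ip1, -0.39 for Ube2d-ps and -0.14 for Psmc3ip.

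E2 enzymes of ubiquitin-like proteins were read together with the modifier and E1 genes of their cascades. In the NEDD8 cascade, which activates cullin ligases, the modifier and both E2 genes were past the fold. Nedd8 had 14.5 on the choline-deficient and 31.7 on the choline-sufficient array, 2.18-fold lower (-1.12 ± 0.20). Ube2m had 1.19 on the deficient and 1.92 on the sufficient array, 1.61-fold lower (-0.68 ± 0.20), and Ube2f 1.40 on the deficient and 2.19 on the sufficient array, 1.56-fold lower (-0.64 ± 0.20). The E1 genes Uba3 and Nae1 did not pass, at -0.34 ± 0.20 and -0.17 ± 0.20. In the SUMO cascade Sae1, a subunit of the E1, had 2.15 on the deficient and 4.07 on the sufficient array, 1.89-fold lower (-0.92 ± 0.20), and its partner Uba2 had -0.34 ± 0.20. The modifiers Sumo3 and Sumo2 had -0.28 and 0.02, Sumo2 below 0 under median scaling and with its brightest probe.

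The ISG15 cascade, an interferon-induced one, had values above 0 for its 3 genes, except that Ube2l6 was below 0 with its brightest probe. Its E1 gene Uba7 had 0.493 on the choline-deficient and 0.218 on the choline-sufficient array, 2.26-fold higher (1.17 ± 0.20). Isg15 itself had 6.52 on the deficient and 5.28 on the sufficient array (0.30 ± 0.20). Its E2 gene Ube2l6 had 0.361 on the deficient and 0.324 on the sufficient array (0.16 ± 0.20), and its 2 probes gave -0.16 and 0.47. In the UFM1 cascade the E2 gene Ufc1 had 12.2 on the choline-deficient and 19.4 on the choline-sufficient array (-0.67 ± 0.20), with -0.40 for the modifier gene Ufm1. Of the ubiquitin genes Rps27a had -0.64, but its 3 probes ran from -1.11 to -0.32, and it was past the fold under 4 of the 9 alternatives, not with its brightest probe. Ubb had -0.40. The ubiquitin E1 genes had 0.12 for Uba1, which its brightest probe turns below 0, and 0.18 for Uba6.

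**Figure D4:**
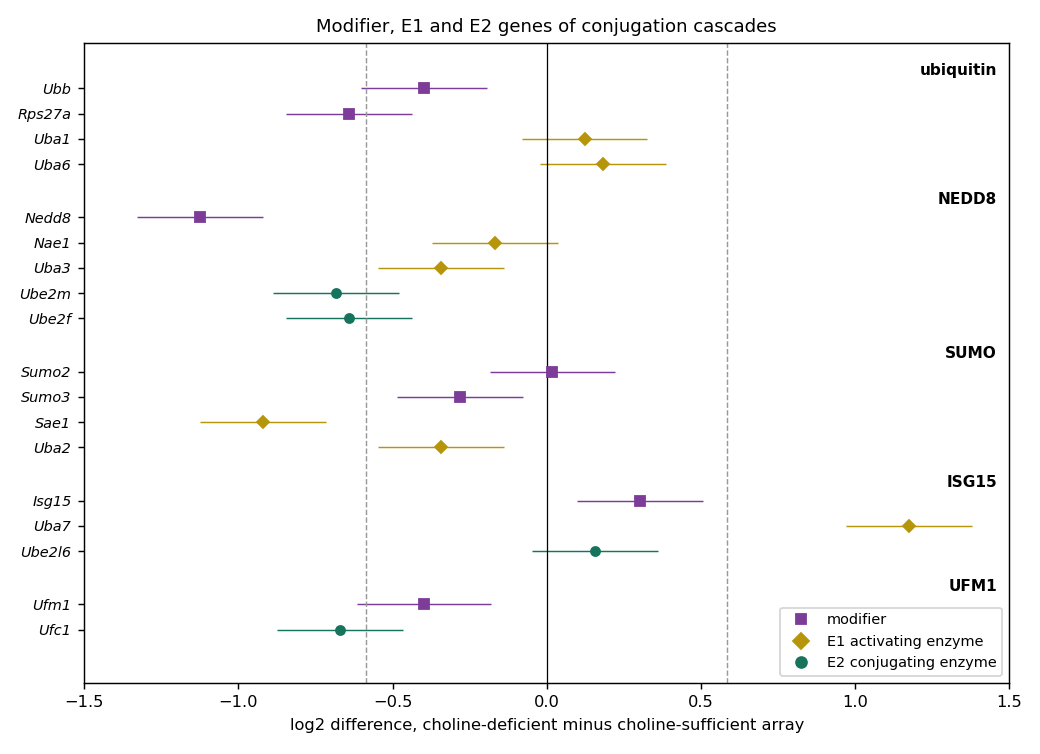
Each point is a gene of a conjugation cascade, with its log2 difference, choline-deficient minus choline-sufficient, on the x axis, the scanner error as a bar and 1.5-fold as dashed lines. Purple squares are modifiers, gold diamonds E1 genes and green circles E2 genes. Nedd8 (-1.12) and Sae1 (-0.92) are the lowest and Uba7 (1.17) the highest, and the small positive values of Sumo2, Uba1 and Ube2l6 turn below 0 with the brightest probe of each.

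Genes of the same pathway that the name rule does not take were read from lists of regulators, partners, modifiers, E1, other E2 and ligase genes. Over the 105 measured genes of these lists, the 4 left-out genes among them, 10 were higher, 20 were lower and the median was -0.18, against 14.8% higher, 14.1% lower and a median of -0.10 over all measured genes. All 30 kept their sign under the alternatives that measured them, and 13 stayed past the fold under each of these. The regulators of proteasome transcription had 1 gene higher and 3 lower of 12, with a median of -0.02. Nfe2l1, whose product drives proteasome genes when the proteasome is inhibited, had 0.426 on the choline-deficient and 0.420 on the choline-sufficient array (0.02 ± 0.20, below 0 under median and quantile scaling). Nfe2l2 had 6.43 on the deficient and 6.35 on the sufficient array (0.02 ± 0.20, below 0 under median scaling), and the Nfe2l1-cleaving protease gene Ddi2 had 0.756 on the deficient and 0.788 on the sufficient array (-0.06 ± 0.20, above 0 under loess and spike-in scaling). Both factors were thus at nearly equal levels on the arrays. Ngly1, the deglycosylase that acts on the NFE2L1 protein, was 3.03-fold higher (1.60), but from signals of 0.0414 on the deficient and 0.0137 on the sufficient array, and at 0.45 it was short of the fold under normexp background correction. The lower genes were Zfand2a (2.15-fold, -1.11), a proteasome-binding stress protein, and the NF-Y subunit genes Nfya (1.93-fold, -0.95) and Nfyb (1.72-fold, -0.78). The gene of the other NF-Y subunit, Nfyc, had 0.26 ± 0.20 and was above 0 under all 9 alternatives.

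Proteasome-associated proteins had 0 genes higher and 2 lower of 15 (13.3%, near the 14.1% of all measured genes), with a median of -0.22. The lower genes were the shuttle factor gene Ubqln1 (1.85-fold, -0.89) and Nploc4 (1.78-fold, -0.83), a cofactor of the segregase VCP. Ubiquitin and ubiquitin-like genes had 0 higher and 3 lower of 12, with a median of -0.41, and besides Nedd8 and Rps27a the gene lower was Urm1 (2.09-fold, -1.06). The E1 genes had Uba7 higher and Sae1 lower of 11, with a median of -0.02. Of 8 E2 genes with other names Atg10 was higher (1.58-fold, 0.66) and Cdc34 and Ufc1 were lower, with a median of -0.34.

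Of 24 measured genes of the HECT and RBR ligases, the classes that use Ube2l3, 4 were higher and 4 were lower (16.7% each), near the shares of 14.8% and 14.1% over all measured genes, and the median was -0.16. Herc3 was 3.28-fold higher (1.72, and 1.06 under normexp correction) and Wwp2 1.82-fold higher (0.86), while Nedd4l was 1.96-fold lower (-0.97). The cullin ligases, which NEDD8 activates, had 0 genes higher and 5 lower of 19, with a median of -0.33. These included the adaptor genes Eloc (1.61-fold, -0.68) and Skp1 (1.56-fold, -0.64, short of the fold with its brightest probe), the F-box gene Fbxo32 (1.58-fold, -0.66) and the scaffold gene Cul2 (1.56-fold, -0.65).

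The scaling of the arrays set how many members passed the fold. All 23 members past the fold kept their sign under the 9 alternative settings, and 4 of them, Psme1, Psmg3, Ube2g2 and Ube2l3, stayed past it under every one. The kept sign was partly fixed in advance. Median and spike-in scaling shift all genes by the same amount, which was smaller than the fold. The deposited values and the stricter filter on level repeat the main values or nearly so. For members with 1 probe on the array, so do the brightest probe and no filter on dim probes. Quantile scaling left 11 of the 23 past the fold, cyclic loess 8 and spike-in scaling 4. Relative to the 75th percentile, the last of these moved the median of all genes to 0.18, and median scaling moved it to -0.22. Over all 78 members 45 stayed below 0 and 6 above it under every setting, and 27 turned sign under at least 1. The share of higher genes among members past the fold was 4.35% with the 75th percentile, 9.09% with quantile, 12.5% with loess and 40.0% with spike-in scaling, where only 5 members passed. Over all genes it was 51.1%, 50.8%, 60.4% and 80.3%.

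**Figure D5:**
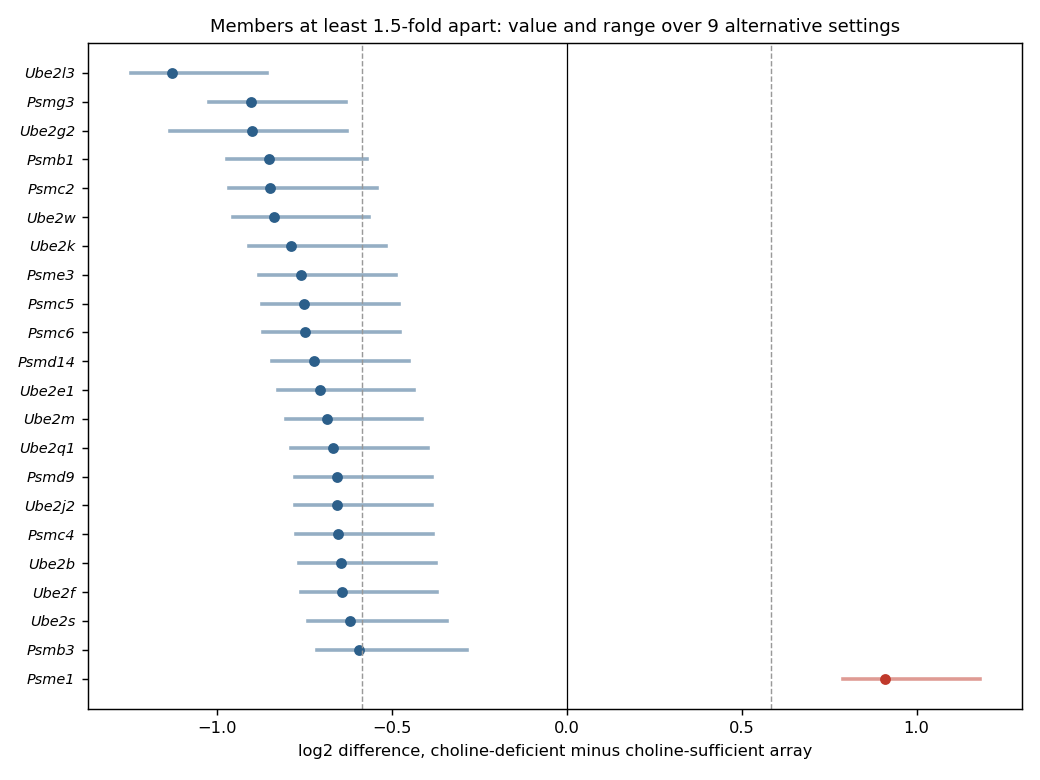
Each row is 1 of 22 drawn of the 23 members at least 1.5-fold apart, with its log2 difference, choline-deficient minus choline-sufficient, as a point and the range over 9 alternative settings as a bar. Dashed lines mark 1.5-fold. No bar crosses 0, which median and spike-in scaling could not have brought about for these genes. The bars of Ube2l3, Psmg3, Ube2g2 and Psme1 stay outside the dashed lines.

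The fold of 1.5 was close to several members. Psmb3 (-0.59) and Ube2s (-0.62) were the nearest inside it, and the nearest outside were Psme3ip1 (-0.55), Psmb7 (-0.54) and Psmg2 (-0.53). Of the measured members 46 had 1 measured probe, 21 had 2, 9 had 3 and 2 had 4. Among the 32 with more than 1, the probes of a gene lay a median of 0.12 apart and at most 0.69, in Ube2v2, and probes of Ube2e3, Ube2l6, Ube2n and Ube2v2 had opposite signs. Markers of several cell types differed between the arrays, where 14.8% of all measured genes were higher and 14.1% lower. Of 6 measured cone markers 3 were higher and 0 lower, with summed scaled signals of 0.444 on the choline-deficient and 0.291 on the choline-sufficient array. Of 2 measured rod markers 1 was higher and 0 lower, with sums of 0.0128 on the deficient and 0.0113 on the sufficient array. Retinal ganglion cell markers went both ways, with 1 higher (Thy1) and 2 lower (Pou4f1 and Rbpms) of 4 measured, and sums of 0.0365 on the deficient and 0.0449 on the sufficient array. Thy1, the cone marker Pde6h and the rod marker Sag, all counted as higher, were near the floor. Their log2 levels on the sufficient array were -8.08, -8.16 and -7.75, where the dimmest probe well above background was at -8.23. Of the Muller glia markers 2 of 4 were measured and Slc1a3 was 3.17-fold higher, with sums of 2.13 on the deficient and 1.11 on the sufficient array. Of the neural progenitor markers 2 of 3 were measured and Nes was 1.87-fold higher, with sums of 6.84 on the deficient and 3.69 on the sufficient array. Of 5 fibroblast markers 4 were measured, and Lum on neither array. On the choline-deficient array 3 were higher, Col1a1 13.5-fold, Col1a2 8.52-fold and Vim 2.10-fold. The summed scaled signals were 96.8 on the choline-deficient and 22.6 on the choline-sufficient array, with 62.3 and 7.31 from Col1a2. Of 3 immune markers 3 were measured and 1 was higher, with summed signals of 0.103 on the deficient and 0.0749 on the sufficient array. The part of these markers in the members' values was not tested.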

How the data were processed

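Each of the 2 samples is 1 Agilent single-colour array. Per the submitters' processing notes the scanner output came from Agilent Feature Extraction 12.1.1.1. In the deposited files each spot has an intensity. Per the file headers it had its background subtracted and a spatial trend within the array removed, with no step between arrays. The deposited value table is a linear ratio of that signal to 1 number per array (1609, deficient, and 1280, sufficient), equal to the array's 75th percentile. Its median was 0.0358 on the deficient and 0.0337 on the sufficient array, genes were not centred, and its direction follows the scanner values.

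Signals were read in R 4.3.3 with version 1.17.8 of data.table, divided by the array's 75th percentile and put on the log2 scale. Control spots and outlier spots (92 on the choline-deficient and 86 on the choline-sufficient array) were dropped, and the log2 values of a probe's spots averaged. A probe counted as measured when it was well above background and not saturated on both arrays, and a gene's value was the mean of its measured probes. A gene was called at 1.5-fold. With 1 array per group no test was possible. Array number and signal over background limit the precision.

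The members, lists and named genes were chosen with earlier results of these data known. Named were all members at least 1.5-fold apart, the extremes of each role group, up to 4 such genes of each related list, and 10 regulators and partners whatever their value. Cascade genes were given whatever their value. A few genes that fall under these rules are left out of the text and figures, though counts and medians include them. The alternatives were median, quantile, cyclic loess (limma 3.58.1) and spike-in scaling, normexp with an offset of 50, the deposited values, a stricter filter on level and none on dim probes, the brightest probe, 2-fold, and a size over 2 scanner errors. Of 132 member probes, the accessions of 129 were found in a RefSeq gene list of GRCm38.p6, with 0 under another symbol. The files give probe positions on mm9, and exon annotation was not used. Counting used pandas 2.3.3 and numpy 2.4.6 under Python 3.11.15, and figures matplotlib 3.10.9. The scripts were tested on simulated data. Proteins of the members were not analysed here.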

Additional observations from a re-analysis of the deposited data

How the results depend on the processing

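The counts moved with the scaling and the size of fold. The number of proteasome genes at least 1.5-fold lower, 10 with the 75th percentile, was 4 with quantile, 3 with cyclic loess, 1 with spike-in scaling and 0 at 2-fold. The number higher, 1, was 2 with no filter on dim probes and 0 at 2-fold. Their median, -0.32, was -0.10 with loess and -0.045 with spike-in scaling. The number of Ube2 genes lower, 12, was 6 with quantile, 4 with loess, 2 with spike-in scaling and 1 at 2-fold. The number higher, 0, was 1 with spike-in scaling, and their median of -0.33 was then -0.060. Of the related genes the 20 lower were 12 with quantile, 13 with loess, 7 with spike-in scaling and 3 at 2-fold, and the 10 higher were 16 with spike-in scaling and 5 at 2-fold. Their median, -0.18, was 0.087 with spike-in scaling. The cause was not tested. Another 72 values moved little, counts by at most 1.5 times and medians by less than the median scanner error of the members, 0.20. Spike-in scaling was an alternative chosen after the data were seen. No paired analysis was possible because each group has 1 array. Signal over background leaves 6 members without a value, and only an array repeated on other cultures could give an error between cultures.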
